A study of Homo sapiens with 4 samples.

Results

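The genes described here are 58 genes of the interferon response and of innate nucleic acid sensing, chosen by name from the 64252 rows of a gene count table. They comprise the interferon receptors, the Janus kinases and STAT proteins behind them, interferon regulatory factors, sensors of foreign RNA and DNA with their adaptors, genes that interferon induces, and the SOCS feedback inhibitors. All 58 symbols matched 1 Ensembl identifier each. The cells were SK-N-BE(2), an established human neuroblastoma line with amplified MYCN. All 4 libraries came from cells given a short hairpin RNA (shRNA), which was a scramble sequence in 2 libraries and was directed against IRF2BP2 in the other 2. The control columns are named NC in the table, which the labels do not spell out, and were taken as the scramble libraries because the other columns name IRF2BP2. The labels name no second hairpin, no clone, no time after transfection, and no treatment with interferon or virus. Nothing in them says that the libraries of a group came from separate cultures, and the spread behind each p-value is that between libraries, possibly a technical one.

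Interferons are secreted proteins that cells release when sensors such as RIG-I, MDA5, cGAS or the toll-like receptors meet foreign nucleic acid. Type I interferon binds IFNAR1 and IFNAR2, the kinases JAK1 and TYK2 then phosphorylate STAT proteins such as STAT2, and these act with IRF9 in a complex that binds the interferon stimulated response element (ISRE) in front of its target genes. Interferon gamma binds IFNGR1 and IFNGR2 and acts through JAK1 and JAK2. Many neuroblastoma lines with amplified MYCN are known for low expression of these pathways. IRF2BP2 was first described as a co-regulator that binds IRF2, a factor of the interferon regulatory family. The comparison asked how these genes stand in cells with lowered IRF2BP2.

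Total counts per library lay between 30847699 and 34684651. IRF2BP2 itself, the target of the hairpin, was at 243 and 238 CPM (counts scaled to a common library total) with scramble and at 89.6 and 87.5 CPM with its own shRNA, a log2 fold change of -1.44 (standard error 0.04, edgeR adjusted p = 5.87e-10). All 12 markers of sympathetic neuroblastoma cells that were looked up were present, but 8 of them fell and 2 rose. MYCN, which rose from 5355 and 5511 to 7067 and 7167 CPM, made up most of their summed level, and the other 11 markers summed to 4172 and 4438 CPM with scramble and to 2464 and 2504 CPM with the IRF2BP2 shRNA. The steepest falls were those of DBH (36.8-fold), CHGA (5.67-fold) and STMN2 (3.97-fold), all genes of the noradrenergic or neuronal state. Of 10 immune cell markers, 4 (CD3E, CD3D, MS4A1 and LYZ) had no count in any library and 8 were under 1 CPM in all of them, and their sum was 4.81 and 7.16 CPM with scramble and 4.38 and 3.78 CPM with the IRF2BP2 shRNA. Most of that sum was PTPRC, the common leukocyte antigen, at 4.06 and 6.05 CPM against 3.19 and 2.34 CPM (edgeR adjusted p = 0.0185), and in bulk RNA fewer cells of a type and less RNA per cell cannot be told apart. Of 5 endothelial markers, 4 were under 1 CPM in every library, among them PECAM1 with no count, and the sums lay between 0.874 and 1.46 CPM. The 6 fibroblast markers summed to 517 and 502 CPM with scramble and to 392 and 385 CPM with the IRF2BP2 shRNA. DCN, LUM, PDGFRB and THY1 fell, COL1A1 went the other way from 6.77 and 7.0 to 33.2 and 28.7 CPM (4.50-fold higher, edgeR adjusted p = 4.83e-08), and COL1A2 was at or under 0.325 CPM in every library. The part of these marker differences in the results was not tested.

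A minority of the interferon genes passed the test for a change, and those that did went both ways. A gene was called where the edgeR quasi-likelihood test gave an adjusted p under 0.05 over all genes tested. Of the 58 genes, 50 passed the filter on low counts and were tested. With the IRF2BP2 shRNA, 5 rose (IFNGR1, TYK2, STAT3, CMPK2 and ISG15), 7 fell (STAT2, MAVS, IFI16, IFI6, OAS3, BST2 and UBE2L6), and 38 were not called. Over all 19093 genes tested 42.0% were called, with 20.6% higher and 21.4% lower, against 12 of 50 (24.0%) of the interferon genes. The median log2 fold change was -0.10 over the 50 genes and -0.01 over all genes tested, and without scramble replicate 1 the median of the interferon genes was 0.035. With upper quartile scaling of the libraries the split was 3 higher and 11 lower. That scaling lowers the log2 fold change of all genes by nearly the same amount, for IRF2BP2 from -1.44 to -1.49. Under it 7930 genes were called in all, and their split by direction is not given here.

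In GRCh38 with GENCODE release 29, the genes that rose were IFNGR1 (ENSG00000027697, chr6:137197484-137219449, minus strand), TYK2 (ENSG00000105397, chr19:10350529-10380676, minus strand), STAT3 (ENSG00000168610, chr17:42313324-42388568, minus strand), CMPK2 (ENSG00000134326, chr2:6840570-6866635, minus strand) and ISG15 (ENSG00000187608, chr1:1001138-1014540, plus strand). The genes that fell were STAT2 (ENSG00000170581, chr12:56341597-56360155, minus strand), MAVS (ENSG00000088888, chr20:3846799-3876123, plus strand), IFI16 (ENSG00000163565, chr1:158999968-159055155, plus strand), IFI6 (ENSG00000126709, chr1:27666061-27672218, minus strand), OAS3 (ENSG00000111331, chr12:112938352-112973249, plus strand), BST2 (ENSG00000130303, chr19:17402939-17405648, minus strand) and UBE2L6 (ENSG00000156587, chr11:57551656-57568284, minus strand).

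**Figure D1:**
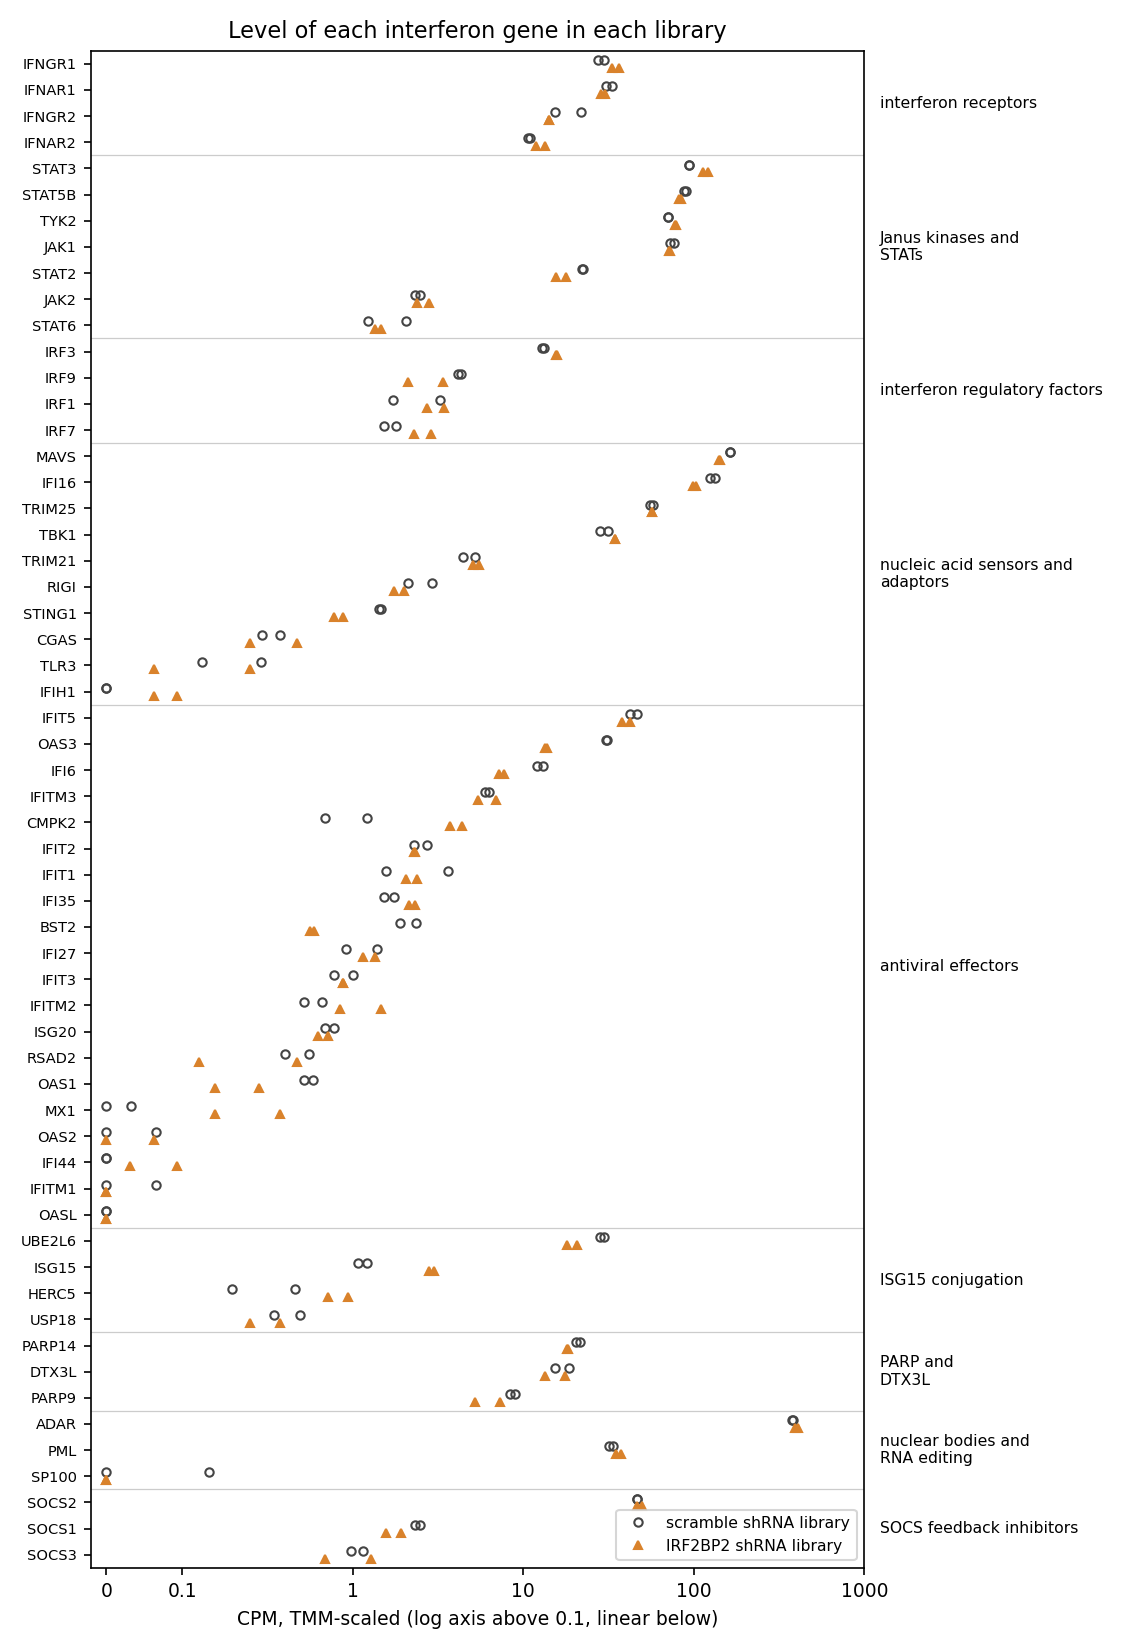
Level of each of the 58 genes in each library, in CPM on an axis that is logarithmic above 0.1 and linear below, with genes grouped by role and ordered by level. Circles are the 2 scramble libraries and triangles the 2 IRF2BP2 shRNA libraries. For 15 genes both group means lie under 1 CPM, and ADAR is highest at 376 to 406 CPM.

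Of the 58 genes, 35 were under 10 CPM, and the share of genes called was smaller at lower levels. Low levels were common among all genes too. Of the 50 interferon genes tested, 8 had a mean under 1 CPM and 20 between 1 and 10 CPM. Of all 19093 genes tested, 3656 and 5055 lay in these ranges. By the higher of the 2 group means, 15 genes lay under 1 CPM, 20 between 1 and 10 CPM, 19 between 10 and 100 CPM and 4 (ADAR, MAVS, IFI16 and STAT3) at 100 CPM or more. Among the 22 tested genes with a mean of 10 CPM or more over the 4 libraries, 8 were called (36.4%), against 57.3% of the 10382 genes at that level. Between 1 and 10 CPM, 4 of 20 were called, against 31.1% of all genes in that range. Under 1 CPM edgeR called 0 of 8, against 13.4%, and at 100 CPM or more 3 of 4, against 70.0%. Relative to exon length, the highest in scramble cells were ADAR (39.2 CPM per kb of exon), IFI16 (24.4), IFI6 (14.4), MAVS (13.9), STAT5B (13.8) and UBE2L6 (13.2).

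**Figure D2:**
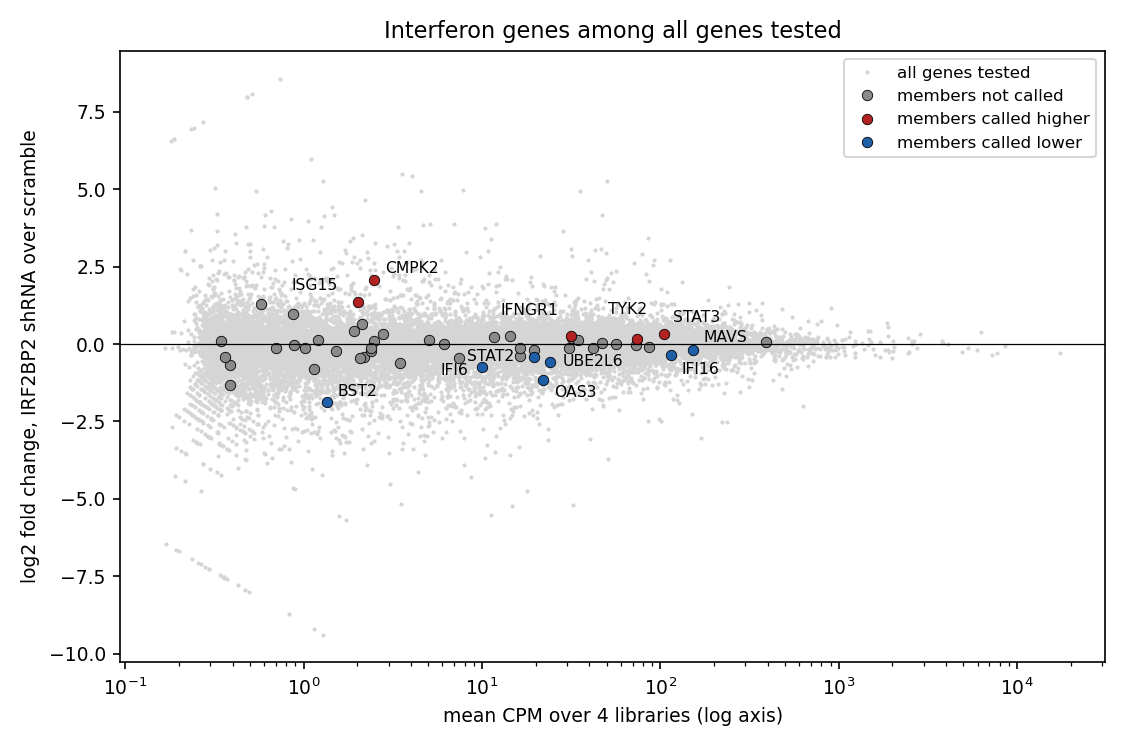
Mean CPM over the 4 libraries (log axis) against the log2 fold change of IRF2BP2 shRNA over scramble for all 19093 genes tested (grey points) and the 50 interferon genes tested (circles, coloured by call). The 12 called genes are named. They run from BST2 at -1.87 to CMPK2 at 2.08.

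The 2 groups did not overlap for 31 of the 50 tested genes, with 14 higher and 17 lower in both IRF2BP2 shRNA libraries than in both scramble libraries. Over all genes tested 70.4% did not overlap, with 34.4% higher and 36.0% lower. With 2 libraries against 2, an exact two-sided permutation test of 1 gene cannot give a p under 0.333, so single genes rest on the edgeR fit, which takes the spread from all genes. Before adjustment 23 of the 50 genes had an edgeR p under 0.05, and 11 of these were not called after it. Over all genes tested 42.0% passed even after adjustment, and the share before it is not given here.

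The 4 receptor subunits were all present, and 1 of them was called. IFNGR1, the ligand-binding chain of the interferon gamma receptor, had 27.5 and 29.8 CPM with scramble and 32.9 and 36.3 CPM with the IRF2BP2 shRNA. It rose 1.21-fold (log2 fold change 0.27, standard error 0.08, edgeR adjusted p = 0.0210). IFNGR1 no longer passed without scramble replicate 1 (edgeR adjusted p = 0.0726) or IRF2BP2 shRNA replicate 2 (0.179), with DESeq2 (0.0532) and with upper quartile scaling (0.0505). Its partner chain IFNGR2 had 21.7 and 15.4 CPM with scramble and 14.2 and 14.1 CPM with the shRNA, and was not called (log2 fold change -0.39, edgeR adjusted p = 0.0686). Without scramble replicate 2, the lower of its 2 control libraries, IFNGR2 was called lower (log2 fold change -0.62, edgeR adjusted p = 8.88e-04), and without scramble replicate 1 its log2 fold change was -0.12. It was also called lower with upper quartile scaling (edgeR adjusted p = 0.0454), with a minimum mean of 10 CPM (0.0299) and with a replicate block (0.0464). The type I receptor chains IFNAR1 (28.6 to 33.3 CPM over the 4 libraries) and IFNAR2 (10.6 to 13.4 CPM) had log2 fold changes of -0.12 and 0.22 and were not called. Both IFNAR2 and IFNGR2 share exon sequence with genes on the opposite strand, and reads of such pairs cannot be told apart in these libraries.

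Of the 7 Janus kinase and STAT genes, STAT3 and TYK2 rose and STAT2 fell. STAT3, which carries signals of the interleukin 6 family, had 94.3 and 94.0 CPM with scramble and 113 and 121 CPM with the IRF2BP2 shRNA (log2 fold change 0.31, standard error 0.04, edgeR adjusted p = 1.74e-04). STAT2, which carries the response to type I interferon, had 22.2 and 22.5 CPM against 17.7 and 15.6 CPM, and was 1.34-fold lower (log2 fold change -0.43, edgeR adjusted p = 0.00432). Both of its shRNA libraries lay below both controls, but without IRF2BP2 shRNA replicate 2 the adjusted p was 0.0652. TYK2, the kinase on IFNAR1, moved least of the called genes, from 70.8 and 70.6 to 77.3 and 79.0 CPM (log2 fold change 0.15, edgeR adjusted p = 0.0301). Its call was lost when any 1 of the 4 libraries was left out (edgeR adjusted p between 0.0511 and 0.142), with DESeq2, with upper quartile scaling and with a filter at a mean of 10 CPM. JAK1 lay between 71.7 and 76.5 CPM in all libraries and STAT5B between 82.3 and 90.1 CPM, while JAK2 (2.33 to 2.81 CPM) and STAT6 (1.24 to 2.04 CPM) were low. None of these 4 was called, although STAT5B was called lower with upper quartile scaling (edgeR adjusted p = 0.0230) and with a minimum mean of 10 CPM (0.0291). STAT6 shares exon bases on the opposite strand with NAB2 and LRP1, both far higher in counts.

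None of the 4 interferon regulatory factors listed was called. Before adjustment 3 had an edgeR p under 0.05, with IRF9 lower and IRF3 and IRF7 higher. Over all genes tested 42.0% passed even after adjustment. IRF9, the DNA-binding part of the complex with STAT2, had 4.12 and 4.33 CPM with scramble and 2.09 and 3.40 CPM with the IRF2BP2 shRNA (log2 fold change -0.62, standard error 0.26, edgeR adjusted p = 0.0774). IRF9 was called lower without IRF2BP2 shRNA replicate 2 (log2 fold change -1.01, edgeR adjusted p = 0.0222), and without replicate 1 its log2 fold change was -0.31. It shares 1838 bases of exon with a second gene model on the same strand that had more counts (a mean of 474 against 113), so its count is uncertain. IRF7, which drives expression of type I interferon genes, had 1.53 and 1.79 CPM against 2.28 and 2.87 CPM (log2 fold change 0.64, edgeR adjusted p = 0.0878). IRF3, which TBK1 activates, had 13.3 and 12.9 CPM against 15.5 and 15.8 CPM (edgeR adjusted p = 0.0756), and overlaps BCL2L12 on the opposite strand. The libraries of IRF1 overlapped, at 1.73 and 3.25 CPM with scramble and 2.72 and 3.43 CPM with the shRNA, and IRF1 shares 1716 bases with its antisense gene.

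Among the 10 sensors and adaptors, the 2 highest relative to exon length fell and the others were not called or not tested. IFI16, a sensor of DNA in the nucleus and cytoplasm, had 133 and 125 CPM with scramble and 103 and 98.9 CPM with the IRF2BP2 shRNA, a log2 fold change of -0.36 (standard error 0.04, edgeR adjusted p = 5.89e-05). MAVS, the mitochondrial adaptor of the RNA sensors, had 164 and 163 CPM against 143 and 141 CPM (log2 fold change -0.21, standard error 0.04, edgeR adjusted p = 8.99e-04). In both genes the shRNA libraries lay below both controls, with a fold of 1.28 for IFI16 and 1.15 for MAVS. The sensors upstream of MAVS were scarce: RIGI, which encodes RIG-I, had 2.91 and 2.12 CPM against 1.75 and 2.00 CPM, and IFIH1, which encodes MDA5, had no count with scramble and 2 and 3 counts with the shRNA. The DNA sensing pair was also low. CGAS, the enzyme that makes the second messenger cGAMP, lay between 0.250 and 0.468 CPM, and its receptor STING1 had 1.47 and 1.43 CPM against 0.875 and 0.780 CPM (log2 fold change -0.81, standard error 0.34, edgeR adjusted p = 0.0793). TBK1, the kinase on which these routes converge, had 31.4 and 28.3 CPM against 34.3 and 34.5 CPM (edgeR adjusted p = 0.0610). TBK1 was called higher without scramble replicate 1 (log2 fold change 0.29, edgeR adjusted p = 0.0167), and without scramble replicate 2 its log2 fold change was 0.13. TRIM25, a ubiquitin ligase that acts on RIG-I, lay between 55.3 and 57.2 CPM in all libraries and TRIM21, an antibody receptor in the cytosol, between 4.46 and 5.53 CPM. TLR3, the receptor for double-stranded RNA in endosomes, had between 2 and 10 counts per library and was not tested.

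**Figure D3:**
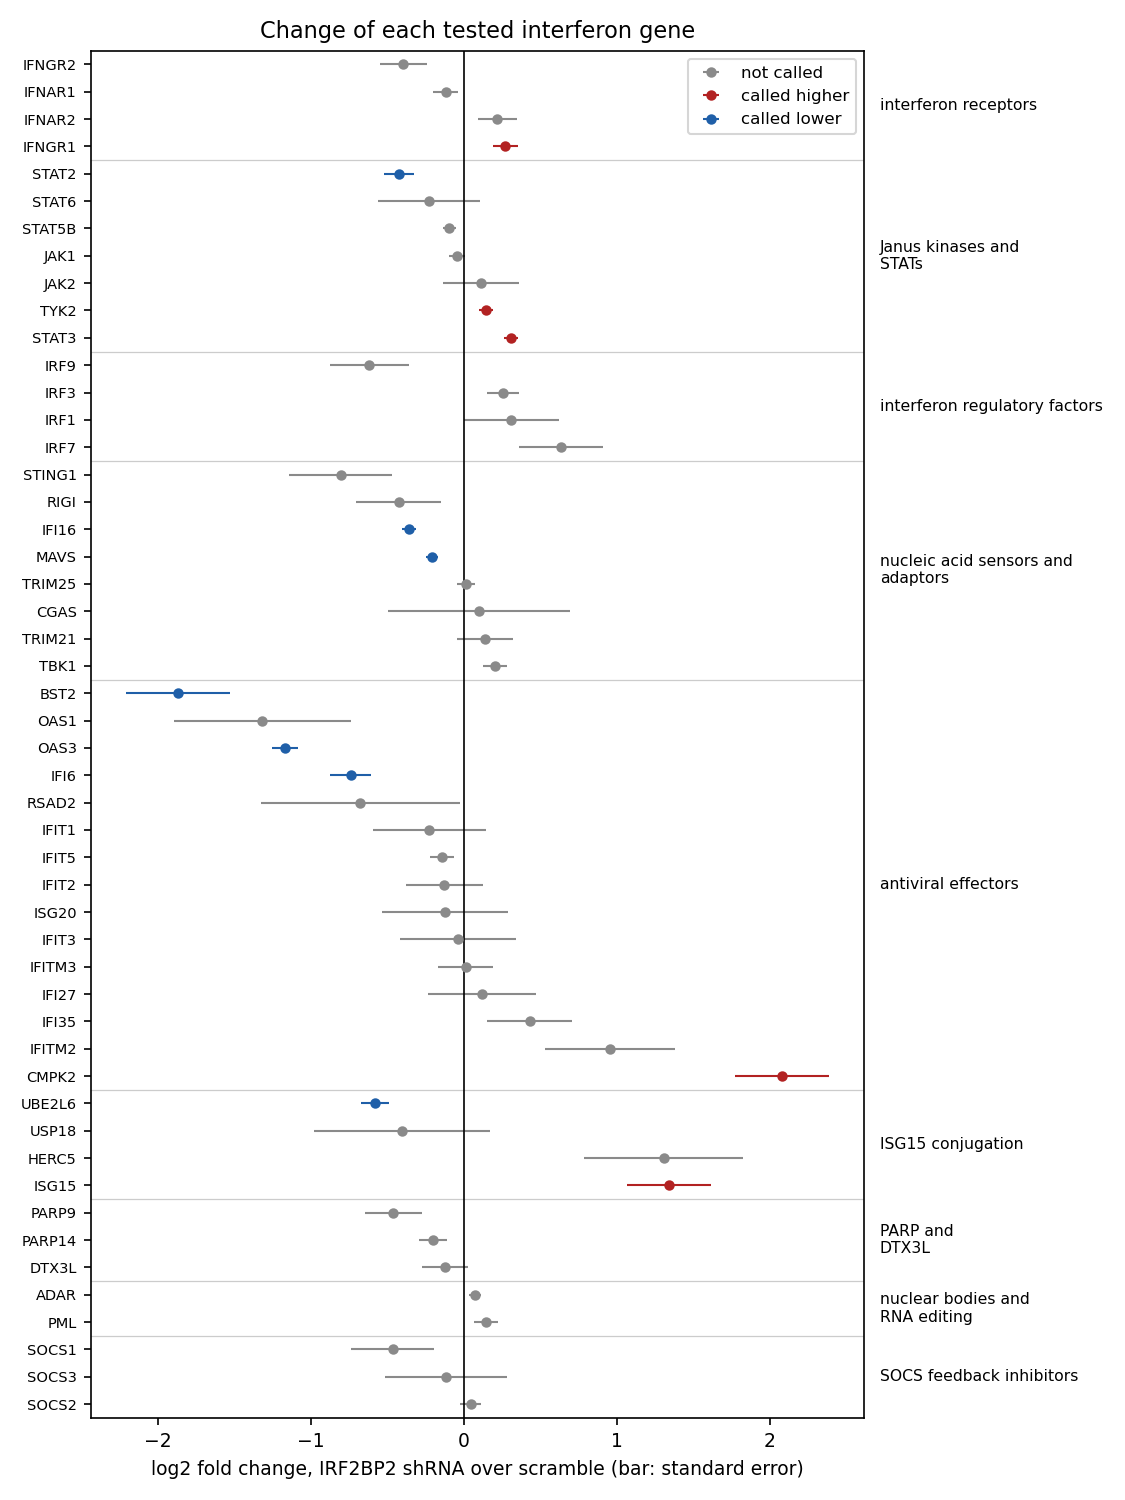
Log2 fold change of IRF2BP2 shRNA over scramble with its standard error for the 50 tested interferon genes, grouped by role and coloured by call. Most bars of genes near or under 1 CPM are wide, such as RSAD2 at -0.68 with a standard error of 0.65, while those of abundant genes are narrow, such as MAVS at -0.21 with 0.04.

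The antiviral effectors held the largest changes, in both directions, and most of them were under 10 CPM. Of 20 genes, 15 were tested, CMPK2 rose, OAS3, IFI6 and BST2 fell, and 11 were not called. OAS3, a synthase of the 2-5A messenger that activates RNase L, had 30.8 and 30.4 CPM with scramble and 13.3 and 13.8 CPM with the IRF2BP2 shRNA. It was 2.25-fold lower (log2 fold change -1.17, standard error 0.09, edgeR adjusted p = 8.80e-07). BST2, or tetherin, which holds budding viruses at the cell surface, had 66 and 72 counts (1.90 and 2.34 CPM) against 18 and 19 counts (0.563 and 0.593 CPM), a log2 fold change of -1.87 (standard error 0.34, edgeR adjusted p = 9.54e-04). IFI6, a small mitochondrial and endoplasmic reticulum protein that limits flavivirus replication, had 12 and 13 CPM against 7.25 and 7.71 CPM (log2 fold change -0.74, standard error 0.13, edgeR adjusted p = 9.64e-04). CMPK2, a mitochondrial nucleotide kinase, went the other way, from 1.21 and 0.683 CPM to 4.38 and 3.71 CPM (42 and 21 counts against 140 and 119), a log2 fold change of 2.08 (standard error 0.31, edgeR adjusted p = 2.21e-04). The groups did not overlap in any of the 4 genes, which also held for 70.4% of all genes tested.

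The promoters of the interferon-induced genes are shown because genes with the same response element moved in opposite directions. RefSeq promoters (GRCh38.p14, 250 bases before to 50 bases after a start) were found for 46 of the 58 genes. The ISRE core GAAANNGAAA, searched on both strands with overlapping matches counted, was present for 22 of these 46 genes (47.8%) and for 4.38% of all genes with a promoter. The core of the gamma activated site bound by STAT dimers, TTCNNNGAA, was present for 10 of 46 (21.7%) and for 9.38% of all genes. The ISRE core was present for 13 of the 16 antiviral effectors with a promoter, and for 0 of 7 Janus kinase and STAT genes. By call, 3 of 7 genes that fell, 1 of 5 that rose and 13 of 28 that were not called had the core. The bases upstream of 5 of these genes follow, 5′ to 3′ on the strand of the gene, with ISRE cores in capitals: 3 that fell (OAS3, chr12:112938224-112938473, plus strand; BST2, chr19:17405631-17405880, minus strand; IFI6, chr1:27672193-27672442, minus strand), ISG15, which rose (chr1:1013247-1013496, plus strand) and IFIT5, which has the core and was not called (chr10:89414318-89414567, plus strand).
OAS3: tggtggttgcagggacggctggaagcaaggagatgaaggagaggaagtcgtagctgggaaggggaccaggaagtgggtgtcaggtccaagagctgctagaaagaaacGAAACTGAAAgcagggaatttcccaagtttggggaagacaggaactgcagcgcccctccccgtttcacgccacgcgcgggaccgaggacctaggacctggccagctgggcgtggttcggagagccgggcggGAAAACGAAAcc
BST2: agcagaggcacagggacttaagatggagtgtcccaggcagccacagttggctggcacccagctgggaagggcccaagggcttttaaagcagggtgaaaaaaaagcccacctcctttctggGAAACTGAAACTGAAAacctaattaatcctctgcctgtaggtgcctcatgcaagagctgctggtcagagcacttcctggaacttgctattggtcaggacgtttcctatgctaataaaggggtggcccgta
IFI6: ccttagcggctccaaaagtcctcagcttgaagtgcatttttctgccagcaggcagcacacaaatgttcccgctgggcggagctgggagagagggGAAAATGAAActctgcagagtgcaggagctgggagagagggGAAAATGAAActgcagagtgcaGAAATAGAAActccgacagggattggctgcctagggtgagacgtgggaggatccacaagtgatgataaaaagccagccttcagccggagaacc
ISG15: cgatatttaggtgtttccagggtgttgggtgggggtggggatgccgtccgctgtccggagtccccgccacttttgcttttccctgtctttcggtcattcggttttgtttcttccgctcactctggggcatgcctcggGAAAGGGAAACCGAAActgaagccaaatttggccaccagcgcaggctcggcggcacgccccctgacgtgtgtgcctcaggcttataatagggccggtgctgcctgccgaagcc
IFIT5: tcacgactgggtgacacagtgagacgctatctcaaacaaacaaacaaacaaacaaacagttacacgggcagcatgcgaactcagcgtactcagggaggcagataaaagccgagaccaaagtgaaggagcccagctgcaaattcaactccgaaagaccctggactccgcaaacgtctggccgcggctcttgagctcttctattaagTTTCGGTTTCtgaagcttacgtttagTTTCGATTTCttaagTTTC
OAS3, BST2 and ISG15 have 2 cores each and IFI6 and IFIT5 have 3 each. Those of BST2 and ISG15 overlap, and the last core of IFIT5 runs past the start. A match describes these letters only.

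Neighbouring genes of the effector families differed in level, and OAS3 was the one among the OAS, IFIT and IFITM genes that was called. OAS1, OAS3 and OAS2 lie side by side on chromosome 12, from 112906777 to 113011723 (GRCh38, GENCODE release 29). OAS1 had 18 counts in each scramble library and 5 and 9 counts with the IRF2BP2 shRNA (log2 fold change -1.32, standard error 0.58, edgeR adjusted p = 0.0917), OAS2 had at most 2 counts in any library, and OASL, located elsewhere on the chromosome, had 0 in all 4, which allows up to 0.0973 CPM for counting error only. OAS3 was the only member of the family above 1 CPM in these cells. Of the IFIT genes on chromosome 10, whose proteins bind viral RNA ends, IFIT5 had 46.4 and 42.0 CPM with scramble and 42.1 and 38.1 CPM with the shRNA (log2 fold change -0.14, edgeR adjusted p = 0.186). IFIT1, IFIT2 and IFIT3 lay between 0.781 and 3.60 CPM, were not called, and overlapped between groups. IFIT2 shares exon bases with LIPA on the opposite strand. It also shares 356 bases with a second gene model on the same strand (a mean of 49 counts against 78), so its count is uncertain. The IFITM genes on chromosome 11 encode membrane proteins that block virus entry and are close in sequence, so their counts are uncertain. IFITM3 lay between 5.41 and 6.96 CPM, IFITM2 had 0.662 and 0.521 CPM against 0.844 and 1.47 CPM (edgeR adjusted p = 0.0960, or 0.0490 with IRF2BP2 shRNA replicate 1 left out), and IFITM1 had 2 counts in 1 scramble library and 0 in the others.

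CMPK2 and RSAD2, the gene of the antiviral radical enzyme viperin, are transcribed away from each other on chromosome 2, with RefSeq starts as near as 22 bases. CMPK2 rose 4.23-fold, whereas RSAD2 had 14 and 17 counts with scramble and 4 and 15 counts with the IRF2BP2 shRNA (log2 fold change -0.68, standard error 0.65, edgeR adjusted p = 0.449), with overlapping groups. Exons of the pair overlap by 14 bases, so few reads can be misassigned between them. The difference between the changes of the 2 genes was not tested. Of the remaining effectors, MX1, a GTPase that traps virus nucleocapsids, had 0 and 1 counts with scramble and 12 and 5 counts with the shRNA and was below the filter. IFI44 had no count with scramble and 1 and 3 counts with the shRNA. IFI35 (1.53 to 2.31 CPM), IFI27 (0.911 to 1.38 CPM) and the exonuclease gene ISG20 (0.624 to 0.777 CPM) were not called.

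Of the 4 genes of ISG15 conjugation, 1 rose, 1 fell and 2 were not called. ISG15 encodes a ubiquitin-like protein that is joined to other proteins through the conjugating enzyme UBE2L6 and the ligase HERC5 and is removed by USP18. ISG15 rose from 1.21 and 1.07 to 2.81 and 3.0 CPM (42 and 33 counts against 90 and 96), a log2 fold change of 1.34 (standard error 0.28, edgeR adjusted p = 0.00221). UBE2L6 had 28.4 and 29.6 CPM with scramble and 18.0 and 20.7 CPM with the IRF2BP2 shRNA, and fell by 0.58 on the log2 scale (standard error 0.09, edgeR adjusted p = 3.71e-04). HERC5 had 16 and 6 counts against 23 and 30 counts (log2 fold change 1.31, standard error 0.52, edgeR adjusted p = 0.0652), and was called without scramble replicate 1, the higher of its controls (log2 fold change 2.07, edgeR adjusted p = 0.0349). USP18 had between 8 and 15 counts in every library, with overlapping groups. Relative to exon length UBE2L6 was above ISG15 in both groups, at 13.2 against 1.21 CPM per kb with scramble and 8.81 against 3.09 CPM per kb with the shRNA.

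PARP9, DTX3L and PARP14, whose products form ADP-ribosylation and ubiquitin ligase complexes in the interferon response, lie near each other on chromosome 3, and none was called. PARP9 had 8.41 and 8.88 CPM with scramble and 7.35 and 5.21 CPM with the IRF2BP2 shRNA (log2 fold change -0.46, standard error 0.18, edgeR adjusted p = 0.0664), and was called lower without IRF2BP2 shRNA replicate 1 (edgeR adjusted p = 0.0152), with limma voom (0.0446) and with upper quartile scaling (0.0459). PARP14 had 21.4 and 20.4 CPM against 18.0 and 18.4 CPM (edgeR adjusted p = 0.0986), and was called lower with upper quartile scaling (edgeR adjusted p = 0.0447) and with a minimum mean of 10 CPM (0.0397). DTX3L, whose start lies 38 bases from that of PARP9 on the other strand, had 18.6 and 15.3 CPM against 17.7 and 13.5 CPM, with overlapping groups. Exons of PARP9 and DTX3L overlap by 217 bases on opposite strands, and reads there cannot be told apart.

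ADAR, which edits adenosine to inosine in double-stranded RNA and so keeps cellular RNA from the sensors, was the most abundant of the 58 genes. Its level was 383 and 376 CPM with scramble and 406 and 394 CPM with the IRF2BP2 shRNA, a log2 fold change of 0.08 (standard error 0.04, edgeR adjusted p = 0.141). The groups did not overlap, but the difference did not pass the test. PML, the scaffold of nuclear bodies, had 33.6 and 31.9 CPM against 37.4 and 35.1 CPM (edgeR adjusted p = 0.151). SP100, another component of these bodies, had 5 counts in 1 scramble library and 0 in the other 3. Of the SOCS genes, whose products shut off Janus kinase signalling, SOCS2 was the highest and lay between 46.3 and 49.4 CPM. SOCS1 had 2.48 and 2.31 CPM against 1.91 and 1.56 CPM (log2 fold change -0.46, edgeR adjusted p = 0.201), and SOCS3 lay between 0.688 and 1.28 CPM. None of the 3 was called.

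The rest of the pathway was looked up in 114 further genes listed by function. The 21 interferon genes among them (13 of the alpha family, beta, epsilon, kappa, omega, gamma and 3 of the lambda family) had no count in any of the 4 libraries. Of the 64 genes tested, 15 rose, 16 fell and 33 were not called, so that 48.4% were called, near the 42.0% over all genes tested. EIF2AK2, the kinase PKR that halts translation on double-stranded RNA, had 163 and 159 CPM against 140 and 138 CPM (log2 fold change -0.21, edgeR adjusted p = 8.47e-04). IRF2, the factor after which IRF2BP2 is named, had 13.4 and 15.9 CPM against 17.3 and 15.7 CPM and was not called (edgeR adjusted p = 0.287).

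The other pathway genes with the smallest p in each direction included the following. TRAF6, a ubiquitin ligase downstream of toll-like receptors, had 35.6 and 35 CPM with scramble and 16.0 and 16.8 CPM with the IRF2BP2 shRNA (log2 fold change -1.10, edgeR adjusted p = 9.47e-07), and the receptor-associated kinase IRAK1 rose by 0.53 on the log2 scale. SAMHD1, which degrades deoxynucleotides, fell by 0.71, and RNASEH2B, a subunit of the RNase that removes RNA from DNA hybrids, fell by 0.76. TRIM5, which binds retroviral capsids, rose by 0.90, LGALS3BP, a secreted glycoprotein, by 0.52, and PTPN1, a phosphatase of Janus kinases, by 0.35. These 7 genes were picked for their small p, so an edgeR adjusted p of 1.13e-04 or less follows from the choice. Their groups did not overlap, which held for 70.4% of all genes tested.

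**Figure D4:**
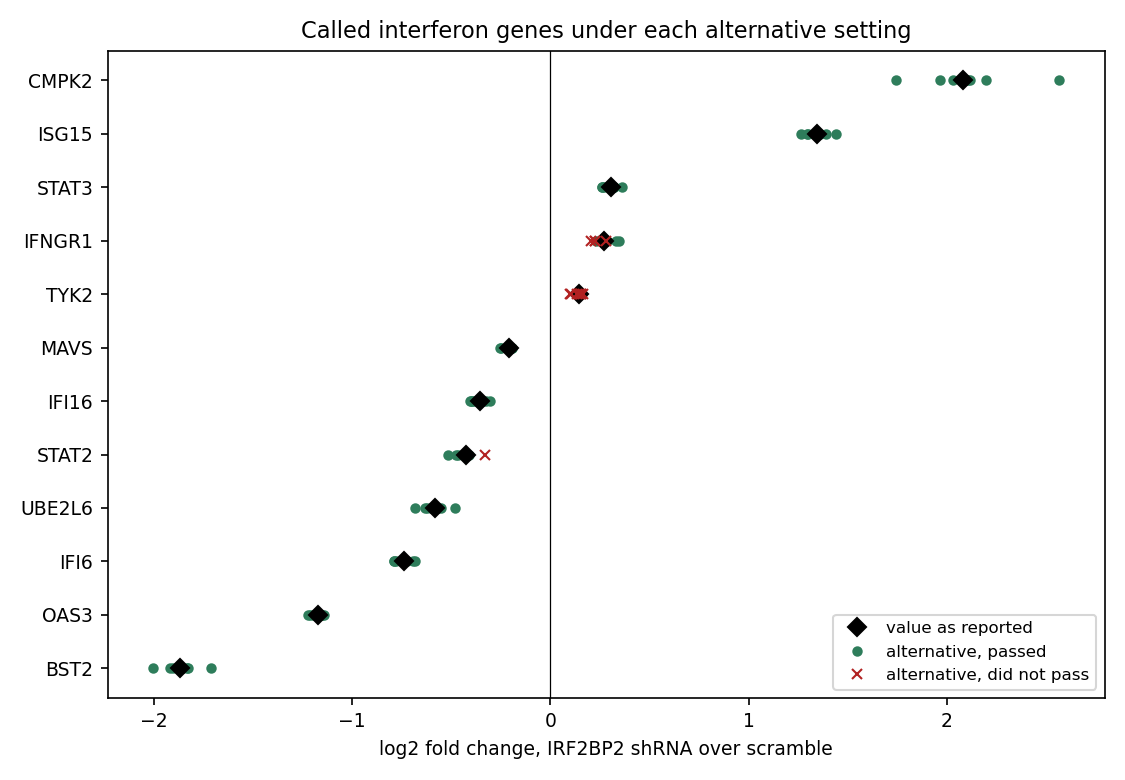
Log2 fold change of IRF2BP2 shRNA over scramble for the 12 called interferon genes, as reported (diamonds) and under the alternative settings other than the test against a 1.5-fold change (green points passed an adjusted p of 0.05, red crosses did not). No gene changes direction, and crosses appear for IFNGR1, TYK2 and STAT2.

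Tested against a change of 1.5-fold in place of no change, 4 of the 12 genes still passed, which were CMPK2 and ISG15 (higher) and OAS3 and BST2 (lower). That is 4 of the 50 interferon genes tested (8.0%), near the 8.48% of all genes tested that passed. The same 4 genes passed under every alternative setting in which they were fitted (12 for OAS3 and 11 for the others, which lie under a mean of 10 CPM). Over those settings the log2 fold change lay between 1.74 and 2.57 for CMPK2, between 1.26 and 1.44 for ISG15, between -1.22 and -1.14 for OAS3 and between -2.0 and -1.71 for BST2.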

How the data were processed

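RNA sequencing counts from 4 libraries (2 scramble shRNA, 2 IRF2BP2 shRNA) were used. The values are raw counts per gene as the authors deposited them, with 1 column per library and no pooling. Per the labels' protocols, TRIzol was used for total RNA and an Illumina TruSeq RNA kit for the libraries, and this kit keeps no strand information. Per the submitters' processing notes, HISAT2 2.2.0 and hg38 were used for alignment. The read counter and annotation were not given in the sources used here.

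Filtering with filterByExpr kept 19093 genes, scaling used TMM factors (trimmed mean of M values), and groups were compared with the edgeR 4.0.16 quasi-likelihood F-test (robust, two-sided, R 4.3.3) with Benjamini-Hochberg adjustment over all genes tested. Standard errors are |log2 fold change| divided by the root of F. CPM are TMM-scaled. Exon lengths, positions and overlaps came from GENCODE release 29. The procedure was checked on simulated counts, with changes planted only in genes of higher counts and with less spread between libraries than here. That check does not cover genes of low counts, such as CMPK2, ISG15 and BST2. Alternatives were RLE and upper quartile scaling, DESeq2 1.42.0, limma 3.58.1 (voom), no filter, a minimum mean of 10 CPM, a 1.5-fold threshold, a replicate block, and leaving out each library.

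The 58 genes and all lists were chosen with earlier results of these data known. Called genes are given per library, and the others by value where they are highest in a role, complete a family or are under 1 CPM. Of the other pathway genes, the 4 called higher and the 4 called lower with the smallest p were to be named, with IRF2 and EIF2AK2 whatever their result; 1 gene this rule names is not reported here.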

Additional observations from a re-analysis of the deposited data

How the results depend on the processing

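With upper quartile scaling 3 interferon genes were higher and 11 lower, in place of 5 and 7. With DESeq2 3 interferon genes were higher and 7 lower, 10 other pathway genes were lower in place of 16, and 6307 genes were called in all. With a minimum mean of 10 CPM, where 22 of the interferon genes were fitted, 2 were higher and 8 lower, and 6134 genes were called in all. CMPK2 and ISG15 lie under that mean and were not fitted there, and TYK2 did not pass (edgeR adjusted p = 0.0802). Tested against a 1.5-fold change, 2 interferon genes were higher and 2 lower, 2 other pathway genes were higher and 2 lower, and 1619 genes of 8016 were called in all. Without 1 library at a time, the interferon genes called were 3 to 5 higher and 7 to 8 lower, other pathway genes 12 to 15 higher and 10 to 13 lower, all genes called 6412 to 7477, genes whose groups do not overlap 37 to 43, and the median log2 fold change of the interferon genes -0.14 to 0.035, positive without scramble replicate 1. IRF2BP2 was called lower in every alternative, with log2 fold changes of -1.42 to -1.45 without 1 library. The 37 to 43 interferon genes without overlap cannot be set against the 31 found with all libraries. A group of 1 library overlaps the other group less readily, whatever the genes. The share of all genes tested without overlap is not given here for these settings. The cause of the other shifts was not tested. The correlation of deviations of same-numbered libraries was 0.06. It weighs all genes alike, so counting error of low genes lowers it, and it cannot decide whether the shared replicate numbers pair the libraries. With a replicate block 5 interferon genes were higher and 8 lower, IFNGR2 being added (edgeR adjusted p = 0.0464), and 7902 genes were called in all.

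No called interferon gene changed direction in any alternative. Among genes not called, the log2 fold change turned sign with upper quartile scaling for TRIM25 (-0.033), IFITM3 (-0.036) and SOCS2 (-0.0041), with limma voom for IFITM3 (-0.00023), and with a minimum mean of 10 CPM for TRIM25 (-0.025). It turned sign without at least 1 library, with these ranges over the libraries left out, for JAK1 (-0.083 to 0.0082), JAK2 (-0.012 to 0.23), STAT6 (-0.54 to 0.19), IRF1 (-0.072 to 0.83), CGAS (-0.41 to 0.48), TRIM25 (-0.0071 to 0.049), IFIT1 (-0.70 to 0.51), IFIT2 (-0.25 to 0.020), IFIT3 (-0.20 to 0.17), IFI27 (-0.14 to 0.46), IFITM3 (-0.18 to 0.19), DTX3L (-0.33 to 0.061) and SOCS3 (-0.62 to 0.27). Depth limits the 15 genes under 1 CPM, whose counts per library are few.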
